A study of Mus musculus with 12 samples.

Results

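Dazl, Brdt, Hormad1, Ddx4, Taf7l, Stk31, Tuba3a, Stra8, Sycp3 and Mael are germ cell and meiosis genes that were read in mouse embryonic stem cells carrying the C48S mutation of the pluripotency factor Oct4 and in WT cells. They are 10 of the 55416 genes counted in each library, and all 10 passed the filter on low counts. The set was chosen by its levels in the undifferentiated libraries, described as lower in C48S than in WT, so those values are given below as descriptions, with no test. That description held for 6 of the 10. Dazl, Brdt, Hormad1, Stk31, Tuba3a and Stra8 were lower in every undifferentiated C48S library than in every undifferentiated WT library, Taf7l was higher, and Ddx4, Sycp3 and Mael overlapped.

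RNA depleted of ribosomal RNA was sequenced from 4 groups of 3 libraries each. C48S RA and WT RA are cells differentiated for 2 days with retinoic acid (RA) at 1.5 mg/L in medium without LIF, the cytokine that sustains mouse embryonic stem cells. C48S and WT undifferentiated cells were kept with an inhibitor of MEK at 1 μM, an inhibitor of GSK3 at 3 μM and ascorbic acid. All 12 libraries are of a Bl/6J line, and C48S is represented by clone 46 alone. Effects of the mutation and effects peculiar to that clone cannot be told apart. The inhibitors are listed for the undifferentiated groups alone. Differences between RA and undifferentiated libraries thus join RA, the change of medium and 2 days of differentiation, which cannot be told apart. The titles and the protocol put every RA library at day 2. The treatment field of the same libraries gives days 2 to 4 for WT and 5 to 7 for C48S, and was not used. Whether libraries of 1 group were grown as separate cultures is not in the labels. The p-values below therefore rest on variation from library to library that may be technical. Library totals ran between 8678088 and 13597098 counts. Replicate 3 of undifferentiated C48S stood apart from the other libraries of its group. Its chi-square per degree of freedom against each of them was 9.66 and 9.88, against at most 2.26 for any other pair within a group.

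Germ cells set themselves apart from the body's other cells by programmes that include meiosis, a set of germ cell RNA-binding proteins and a small-RNA defence against transposons. In cultured stem cells many such genes are held down by DNA methylation and by a repressor complex of E2F6, MGA, MAX and PCGF6 that binds E-box and E2F motifs, and cells kept in MEK and GSK3 inhibitors have little DNA methylation. In the fetal gonad, retinoic acid induces Stra8 at the onset of meiosis.

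The promoters of the members are shown for the motifs of these regulators, since Stra8 stood higher after RA in both lines and the members split after RA between higher, lower and not called. Windows from 250 bases before to 50 bases after the annotated start were taken from RefSeq on GRCm38.p6, where all 10 members had an entry. They are written 5′ to 3′ on the gene's strand in lower case. Capitals mark CACGTG, the E-box bound by MAX partners, and AGGTCA, the hexamer bound by retinoic acid receptors, searched on both strands and not overlapping each other. The first set holds the members with no CACGTG, Dazl at chr17:50293571-50293870 on the minus strand, Tuba3a at chr6:125286032-125286331 on the minus strand and Stra8 at chr6:34920698-34920997 on the plus strand.
Dazl: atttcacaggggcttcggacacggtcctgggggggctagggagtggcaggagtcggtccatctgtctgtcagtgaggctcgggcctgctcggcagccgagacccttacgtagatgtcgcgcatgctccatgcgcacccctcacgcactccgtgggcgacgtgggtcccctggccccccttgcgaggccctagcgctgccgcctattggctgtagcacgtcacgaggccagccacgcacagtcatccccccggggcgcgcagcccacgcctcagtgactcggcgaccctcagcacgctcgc
Tuba3a: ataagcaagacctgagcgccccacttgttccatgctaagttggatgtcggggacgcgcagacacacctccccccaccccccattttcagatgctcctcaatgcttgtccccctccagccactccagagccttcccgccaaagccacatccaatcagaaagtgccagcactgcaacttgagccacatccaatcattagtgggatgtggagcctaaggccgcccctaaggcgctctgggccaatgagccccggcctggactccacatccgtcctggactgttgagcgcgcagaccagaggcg
Stra8: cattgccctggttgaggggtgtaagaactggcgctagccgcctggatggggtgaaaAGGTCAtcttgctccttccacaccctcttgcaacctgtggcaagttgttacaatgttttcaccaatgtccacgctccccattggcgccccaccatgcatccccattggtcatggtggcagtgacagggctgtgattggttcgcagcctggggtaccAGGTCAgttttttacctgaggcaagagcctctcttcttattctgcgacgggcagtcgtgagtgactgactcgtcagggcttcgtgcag
The second set holds 4 of the members with CACGTG, Brdt at chr5:107330944-107331243 (plus strand), Hormad1 at chr3:95559427-95559726 (plus strand), Ddx4 at chr13:112652261-112652560 (minus strand) and Taf7l at chrX:134476441-134476740 (minus strand).
Brdt: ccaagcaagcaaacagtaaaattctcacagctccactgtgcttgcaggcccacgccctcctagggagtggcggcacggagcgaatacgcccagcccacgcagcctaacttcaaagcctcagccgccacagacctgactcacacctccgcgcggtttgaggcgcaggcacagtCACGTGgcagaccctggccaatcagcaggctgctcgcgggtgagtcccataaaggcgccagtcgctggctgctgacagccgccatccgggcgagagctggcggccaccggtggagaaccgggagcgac
Hormad1: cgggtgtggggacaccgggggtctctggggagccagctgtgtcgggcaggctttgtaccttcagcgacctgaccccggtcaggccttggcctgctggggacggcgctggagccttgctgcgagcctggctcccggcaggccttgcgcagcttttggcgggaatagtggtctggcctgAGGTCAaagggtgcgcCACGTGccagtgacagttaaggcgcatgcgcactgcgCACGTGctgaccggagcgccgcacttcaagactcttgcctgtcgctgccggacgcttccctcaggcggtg
Ddx4: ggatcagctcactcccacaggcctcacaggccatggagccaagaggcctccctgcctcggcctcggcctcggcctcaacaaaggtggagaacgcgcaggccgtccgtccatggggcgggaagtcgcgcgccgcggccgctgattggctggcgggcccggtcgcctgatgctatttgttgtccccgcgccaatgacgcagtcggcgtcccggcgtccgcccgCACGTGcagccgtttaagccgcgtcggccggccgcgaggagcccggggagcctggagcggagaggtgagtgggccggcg
Taf7l: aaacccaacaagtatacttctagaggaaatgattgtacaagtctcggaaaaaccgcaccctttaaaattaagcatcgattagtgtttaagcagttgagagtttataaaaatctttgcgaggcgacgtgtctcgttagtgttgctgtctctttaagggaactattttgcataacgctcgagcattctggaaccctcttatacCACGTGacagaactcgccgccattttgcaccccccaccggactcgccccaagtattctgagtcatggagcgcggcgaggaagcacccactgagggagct

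CACGTG stood in 7 of the 10 members, against 7.15% of the 32851 mouse promoters of the same length. That share counts promoter entries, of expressed genes or not, and was not matched for CpG. Counted by gene, 1364 tested genes with an entry had CACGTG and 10728 did not. Among the other germ cell genes listed below, 14 had it and 48 did not. Besides the 4 shown, Stk31 and Mael had 1 copy and Sycp3 had 2, and Hormad1 also had 2. TCCCGC or its complement, the letters of an E2F6-type motif, stood in Hormad1, Ddx4, Tuba3a, Sycp3 and Mael, 5 of the 10 members against 20% of promoters. Both motifs together stood in Hormad1, Ddx4, Sycp3 and Mael, against 1.99% of promoters. AGGTCA stood in Stra8 at 194 and 38 bases before the start, and once each in Hormad1 and Sycp3, 3 of the 10 members against 16.3% of promoters. The windows held 10 CpG in Stra8 to 38 in Ddx4, with a median of 23.5 over the members, against a median of 7 over all promoters. The letters are a description of these windows and show no binding.

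**Figure D1:**
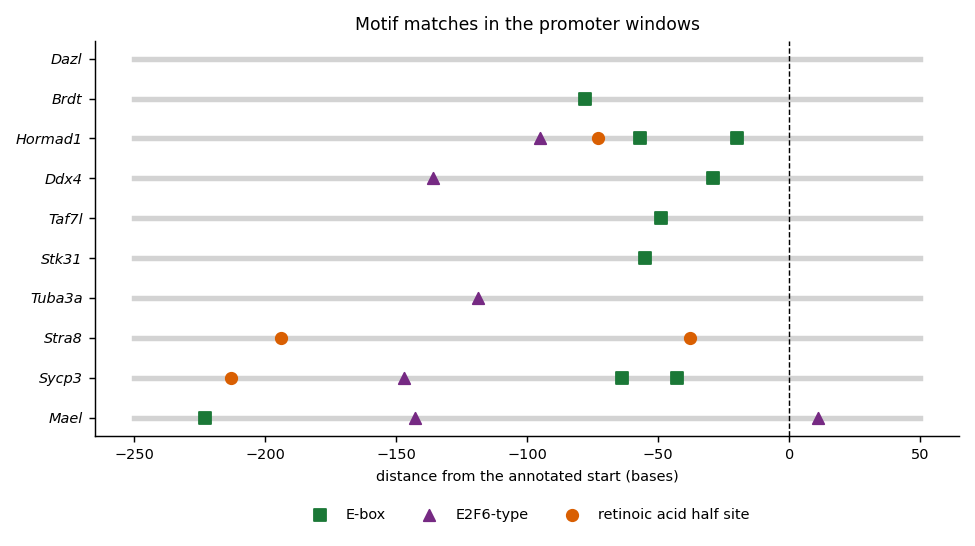
Motif matches in the promoter windows of the 10 members, plotted by distance from the annotated start in bases, with squares for CACGTG (E-box), triangles for TCCCGC (E2F6-type) and circles for AGGTCA. Brdt, Hormad1, Ddx4, Taf7l, Stk31, Sycp3 and Mael carry CACGTG, and Stra8 carries AGGTCA at 194 and 38 bases before its start.

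After 2 days of RA, a state that the stated rule did not use, 6 of the 10 differed between C48S and WT by edgeR's quasi-likelihood test at a Benjamini-Hochberg adjusted p under 0.05. Taf7l, Stk31 and Ddx4 were higher in C48S, and Dazl, Tuba3a and Stra8 were lower. The members were named with earlier results of these data known, RA libraries included, so these p-values are not independent of the choice. The test called 54.5% of all 17940 genes in this comparison, 28.8% higher and 25.7% lower, so a share of 6 in 10 is near the background of these libraries. The libraries did not overlap for 8 members, 5 higher and 3 lower in C48S, against 62.6% of all genes, 32.9% higher and 29.6% lower. The median log2 difference of the members was 0.11, against 0.02 over all genes tested. Levels below are CPM, the gene's counts scaled to the effective total of each library, and changes are log2 with their SE, C48S minus WT or RA minus undifferentiated.

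Stra8 (ENSMUSG00000029848), which germ cells need to enter meiosis, lies on chromosome 6 from 34897098 to 34916279 (GRCm39, as all gene positions here). It had 233, 238 and 225 CPM in C48S RA libraries, against 408, 422 and 393 CPM in WT RA libraries. It had 3.39, 3.30 and 2.90 CPM in undifferentiated C48S libraries, against 9.96, 10.3 and 8.68 CPM in undifferentiated WT libraries. All 4 groups were apart from each other, with WT RA highest and undifferentiated C48S lowest. After RA it was lower in C48S by edgeR, at -0.81 ± 0.047 (adjusted p = 1.51e-16, 95% interval -0.92 to -0.71). RA libraries stood above undifferentiated ones by 6.17 ± 0.12 in C48S and 5.39 ± 0.081 in WT, 72.0-fold and 42.0-fold, the C48S value resting on 99 counts over the undifferentiated C48S libraries. The C48S level was thus lower than the WT level in both states, by 1.59 on the log2 scale before RA.

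Dazl (ENSMUSG00000010592; chromosome 17, 50586423 to 50600664), an RNA-binding protein that germ cells need for their translation programme, had the largest differences of the 10. It had 7.99, 8.51 and 6.97 CPM in C48S RA libraries, against 35.4, 32.8 and 35.5 CPM in WT RA libraries. It had 5.60, 8.95 and 6.51 CPM in undifferentiated C48S libraries, against 315, 346 and 329 CPM in undifferentiated WT libraries. Both C48S groups overlapped each other and lay below every WT library. After RA it was lower in C48S by edgeR, at -2.15 ± 0.11 (adjusted p = 5.68e-19, 95% interval -2.39 to -1.90). The undifferentiated difference was -5.57 ± 0.11, or 47.6-fold. WT RA libraries stood 9.55-fold below undifferentiated WT libraries, whereas the change in C48S was 0.17 ± 0.14. Ddx4 (ENSMUSG00000021758; chromosome 13, 112734867 to 112789009), the Vasa RNA helicase of germ granules, had 38.1, 41.7 and 37.9 CPM in C48S RA libraries, against 30.8, 34.4 and 32.3 CPM in WT RA libraries. It had 15.2, 15.8 and 17.5 CPM in undifferentiated C48S libraries, against 19.2, 17.8 and 16.2 CPM in undifferentiated WT libraries. The undifferentiated groups overlapped and the RA groups did not. After RA it was higher in C48S by edgeR, at 0.27 ± 0.084 (adjusted p = 0.00712, 95% interval 0.07 to 0.46). That call was lost with DESeq2 (adjusted p = 0.0698), without WT RA replicate 1 (0.0523), without C48S RA replicate 2 (0.0513) and, at adjusted p = 1, against a null of a 1.5-fold change. RA libraries stood above undifferentiated ones by 1.28 ± 0.094 in C48S and 0.88 ± 0.095 in WT.

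Stk31 (ENSMUSG00000023403; chromosome 6, 49372538 to 49446435), a Tudor-domain kinase family protein of male germ cells, changed its order between the states. It had 25.4, 26.7 and 27.1 CPM in C48S RA libraries, against 15.4, 16.0 and 16.5 CPM in WT RA libraries. It had 9.33, 11.4 and 12.2 CPM in undifferentiated C48S libraries, against 24.4, 25.1 and 23.8 CPM in undifferentiated WT libraries. C48S RA and undifferentiated WT were the high groups and each was apart from the other. After RA it was higher in C48S by edgeR, at 0.72 ± 0.099 (adjusted p = 1.27e-07, 95% interval 0.49 to 0.95), which did not pass against a null of a 1.5-fold change (adjusted p = 0.142). Before RA it stood at -1.17 ± 0.11. Mael (ENSMUSG00000040629; chromosome 1, 166028770 to 166066316), a component of the piRNA pathway that silences transposons, had 16.5, 17.6 and 16.1 CPM in C48S RA libraries, against 14.4, 15.7 and 15.2 CPM in WT RA libraries. It had 4.92, 4.58 and 4.03 CPM in undifferentiated C48S libraries, against 5.66, 4.37 and 6.29 CPM in undifferentiated WT libraries. The RA groups did not overlap but their difference, 0.14 ± 0.12, was not called by edgeR (adjusted p = 0.304, 95% interval -0.12 to 0.41). Mael stood higher after RA by 1.88 ± 0.15 in C48S and 1.49 ± 0.15 in WT.

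Hormad1 (ENSMUSG00000028109; chromosome 3, 95466988 to 95494982), a protein of the unsynapsed meiotic chromosome axis, had 12.8, 13.6 and 11.5 CPM in C48S RA libraries, against 11.8, 12.4 and 11.3 CPM in WT RA libraries. It had 12.5, 15.3 and 15.1 CPM in undifferentiated C48S libraries, against 49.3, 51.9 and 47.9 CPM in undifferentiated WT libraries. Undifferentiated WT stood alone above the other 3 groups, and C48S RA overlapped both undifferentiated C48S and WT RA. The RA difference was 0.08 ± 0.11 and was not called (edgeR adjusted p = 0.555, 95% interval -0.18 to 0.35). The undifferentiated difference was -1.81 ± 0.099. Of the 50-base stretches of Hormad1 transcripts, 22.9% also occur in the pseudogenes Gm15529 and Gm7167, which had between 0 and 19 counts summed over any group. Sycp3 (ENSMUSG00000020059; chromosome 10, 88295431 to 88309098), a core protein of the synaptonemal complex, stayed low in every library. It had 4.30, 3.55 and 4.52 CPM in C48S RA libraries, against 3.42, 3.09 and 3.13 CPM in WT RA libraries. It had 3.22, 4.16 and 2.90 CPM in undifferentiated C48S libraries, against 1.99, 3.27 and 2.60 CPM in undifferentiated WT libraries. Within each line the RA and undifferentiated libraries overlapped. After RA the C48S libraries lay above the WT libraries, at 0.37 ± 0.22, with no call by edgeR (adjusted p = 0.15, 95% interval -0.13 to 0.87).

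Brdt (ENSMUSG00000029279; chromosome 5, 107479025 to 107534924), the testis bromodomain protein that reads acetylated histones, moved in opposite directions with RA in the lines. It had 16.2, 14.4 and 15.2 CPM in C48S RA libraries, against 15.6, 15.8 and 16.1 CPM in WT RA libraries. It had 3.22, 2.13 and 2.27 CPM in undifferentiated C48S libraries, against 31.7, 37.5 and 38.2 CPM in undifferentiated WT libraries. The RA groups overlapped, while the undifferentiated groups lay on either side of them. The RA difference was -0.05 ± 0.11 and was not called (edgeR adjusted p = 0.734, 95% interval -0.31 to 0.21), and the undifferentiated difference was -3.78 ± 0.18. Taf7l (ENSMUSG00000009596; X chromosome, 133360867 to 133377239), a germ cell form of a general transcription factor subunit, was higher in C48S in both states. It had 34.9, 45.4 and 34.1 CPM in C48S RA libraries, against 17.8, 23.6 and 17.9 CPM in WT RA libraries. It had 3.31, 2.56 and 4.34 CPM in undifferentiated C48S libraries, against 1.68, 1.93 and 1.74 CPM in undifferentiated WT libraries. All 4 groups were apart from each other. After RA it was higher in C48S by edgeR, at 0.93 ± 0.12 (adjusted p = 6.51e-08, 95% interval 0.66 to 1.21). Its RA change was 3.47 ± 0.19 in C48S and 3.46 ± 0.25 in WT, and without undifferentiated C48S replicate 3 it was 3.67 in C48S.

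Tuba3a (ENSMUSG00000067702; chromosome 6, 125255237 to 125263005), an alpha-tubulin abundant in testis, had 7.84, 7.76 and 7.13 CPM in C48S RA libraries, against 13.9, 14.3 and 13.6 CPM in WT RA libraries. It had 4.16, 3.94 and 6.00 CPM in undifferentiated C48S libraries, against 71.9, 73.6 and 75.5 CPM in undifferentiated WT libraries. All 4 groups were apart, and every C48S library lay below every WT library. After RA it was lower in C48S by edgeR, at -0.88 ± 0.12 (adjusted p = 1.26e-07, 95% interval -1.16 to -0.60). The undifferentiated difference was -3.97 ± 0.13, or 15.7-fold. Its transcripts share 33.6% of their 50-base stretches with Tuba3b, Gm5366 and Tuba8, so read pairs from those stretches could be lost. The effect on its counts was not measured. Tuba3b had 41 counts in C48S RA, 175 in WT RA, 6 in undifferentiated C48S and 223 in undifferentiated WT, summed over each group.

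**Figure D2:**
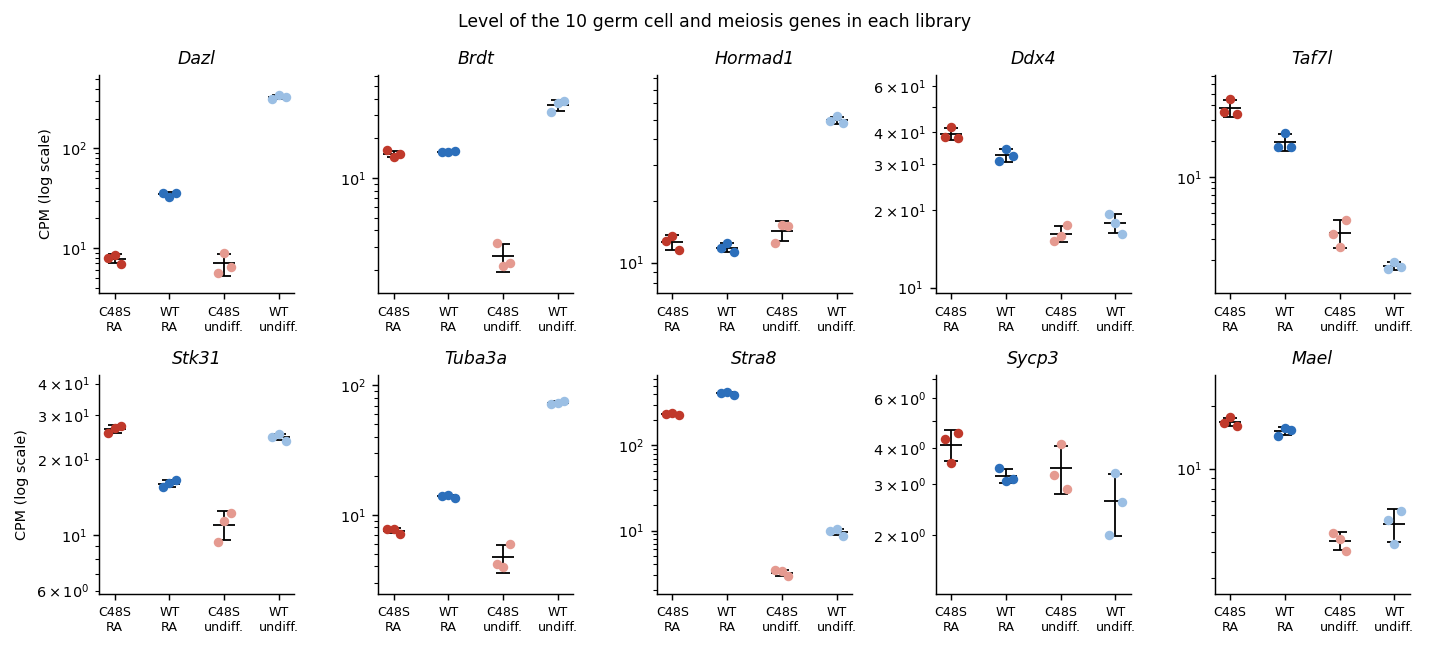
Level of each member in every library, in CPM on a log axis of its own, by group, with lines for the mean and bars for the SD of 3 libraries. Dazl lies near 330.2 CPM in undifferentiated WT libraries and at or below 8.95 CPM in all 6 C48S libraries, while Stra8 lies between 225 and 422 CPM in the RA libraries and at or below 10.3 CPM in the undifferentiated ones.

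**Figure D3:**
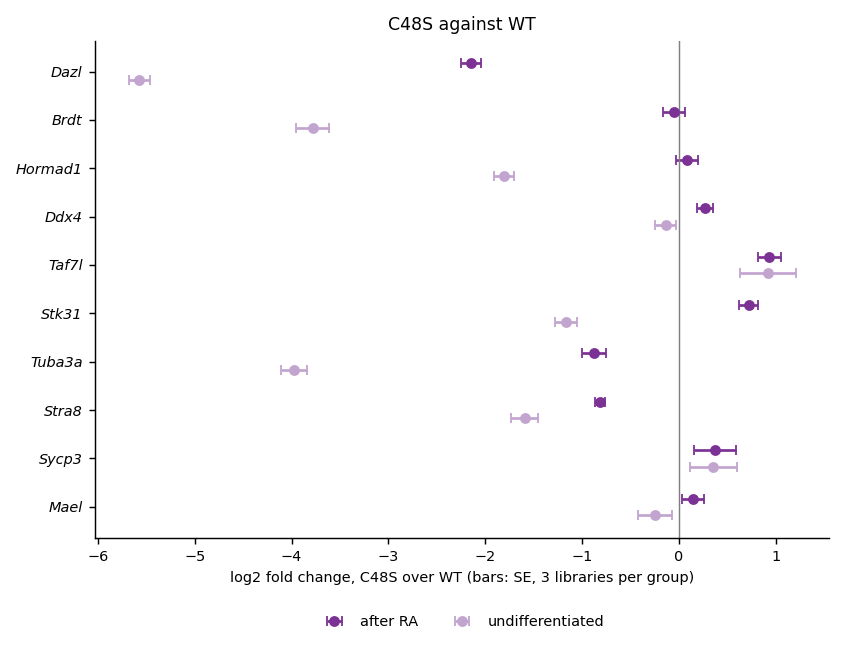
Log2 difference of C48S from WT for each member after RA and in undifferentiated cells, with SE bars. After RA the members lie between -2.15 for Dazl and 0.93 for Taf7l, and undifferentiated between -5.57 for Dazl and 0.92 for Taf7l.

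These are bulk libraries, in which fewer cells expressing a gene and less RNA per cell cannot be told apart. Before RA, 6 members were lower in C48S with no overlap and 1 was higher. Of all genes 58.3% did not overlap, 29.6% lower and 28.7% higher, and nothing is read from that count because it chose the members. Among the 3 members that overlapped, the differences were -0.14 ± 0.10 for Ddx4, -0.24 ± 0.18 for Mael and 0.36 ± 0.24 for Sycp3. Without undifferentiated C48S replicate 3, which stood apart, Dazl was at -5.53, Tuba3a at -4.17, Brdt at -3.70, Hormad1 at -1.85, Stra8 at -1.53, Stk31 at -1.25 and Taf7l at 0.73.

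The RA changes of the members are described with no test, because they rest on the same undifferentiated libraries. In C48S, 7 members were higher after RA with no overlap and 0 were lower, while 73.8% of all genes did not overlap, 39.3% higher and 34.5% lower. In WT, 4 were higher and 5 lower, while 80.9% of all genes did not overlap, 42% higher and 38.9% lower. Stra8, Taf7l, Mael and Ddx4 were higher after RA in both lines. Brdt was higher by 2.56 ± 0.18 in C48S and lower in WT, at -1.18 ± 0.10. Stk31 was at 1.27 ± 0.11 in C48S and -0.61 ± 0.10 in WT, and Tuba3a at 0.69 ± 0.15 in C48S and -2.40 ± 0.096 in WT. Dazl and Hormad1 were lower after RA in WT, at -3.26 ± 0.070 and -2.07 ± 0.10, while their C48S libraries overlapped between the states. The C48S change minus the WT change was largest for Brdt at 3.73, Dazl at 3.43 and Tuba3a at 3.10, and was 1.89 for Hormad1, 1.88 for Stk31, 0.78 for Stra8, 0.41 for Ddx4 and 0.39 for Mael. It was 0.01 for both Taf7l and Sycp3, smaller than their SE of 0.31 and 0.33.

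**Figure D4:**
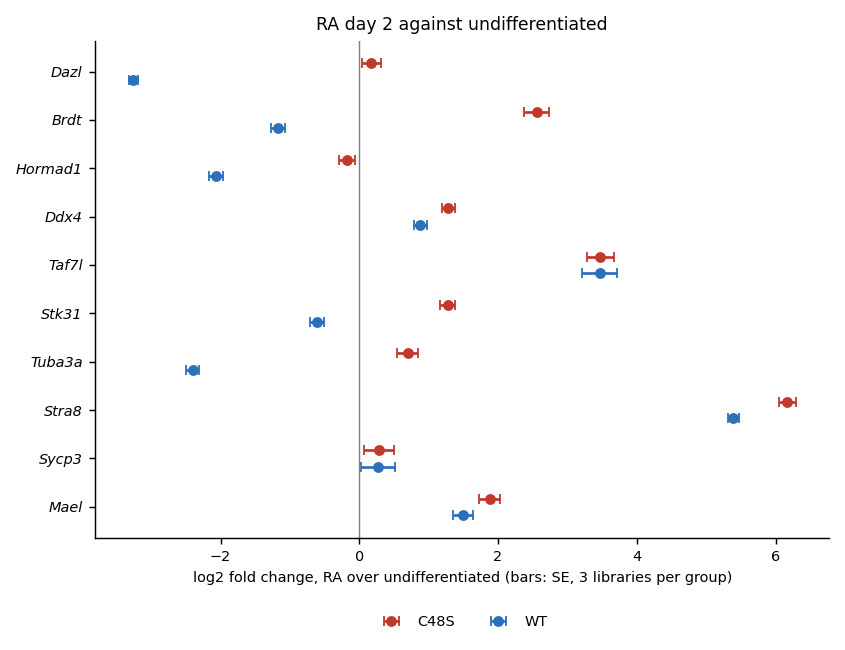
Log2 change with RA of each member in C48S and in WT, with SE bars. Stra8 and Taf7l are far above 0 in both lines, and Brdt, Stk31 and Tuba3a are above 0 in C48S and below 0 in WT.

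Per kilobase of exon, which allows levels of different genes to be set side by side, Stra8 led after RA with 129 CPM per kb in C48S and 226 CPM per kb in WT. The next members after RA were Taf7l in C48S, with 16.97 CPM per kb, and Ddx4 in WT, with 10.8 CPM per kb. Dazl was the lowest member in C48S RA libraries, with 2.05 CPM per kb, and the fourth of the 10 in WT RA libraries, with 9.06 CPM per kb. In undifferentiated cells Hormad1 led in C48S, with 8.27 CPM per kb, and Dazl led in WT, with 86.4 CPM per kb. Tuba3a followed Dazl in undifferentiated WT cells with 48.8 CPM per kb, against 3.11 CPM per kb in undifferentiated C48S cells. Brdt was the lowest member in undifferentiated C48S cells with 0.50 CPM per kb, and Taf7l the lowest in undifferentiated WT cells with 0.79 CPM per kb.

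Over the 12 libraries, Pearson's r of log2 CPM between members was highest for Dazl and Tuba3a, at 0.99, and for Stra8 and Mael, at 0.97. Dazl and Stra8 had r = -0.19. Among 13913 genes ranked, the 5 with a pattern most like that of Dazl were Castor1, Atg14, Git1, Atf7ip2 and Gldc, with r of 0.99. Castor1 averaged 17.6 CPM in C48S RA, 47.8 CPM in WT RA, 19.2 CPM in undifferentiated C48S and 178 CPM in undifferentiated WT libraries. For Stra8 they were Specc1, Sowahb, Esx1, Ptpru and Mmp15, with r of 1.00 to 2 decimals. The 12 points fall into the 4 groups and share their libraries, so these values describe group differences and not 12 independent points.

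Stra8, Stk31 and Tuba3a lie on chromosome 6, whose genes stood apart between the lines as a whole. The median log2 difference of C48S from WT over its 797 genes of at least 1 CPM was 0.60 after RA and 0.58 before it. Stra8 and Tuba3a were lower in C48S against that shift, and Stk31 after RA was higher by 0.72, close to it. Before RA Stk31 was lower in C48S, at -1.17, also against the shift. The part of the shift in the values of these 3 genes was not tested.

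Other germ cell genes were listed by role, and 84 of the 101 listed had enough counts to be tested. After RA, 23 were called higher in C48S and 25 lower by edgeR, 27.4% and 29.8% of them, against 28.8% and 25.7% of all genes. In undifferentiated cells 15 were higher and 37 lower, 17.9% and 44% of them. Of all genes 55.6% were called, 27.5% higher and 28.1% lower. The list had a median difference of -0.27, against 0.00 over all genes. With RA, 51 were higher and 19 lower in C48S, where 73.6% of all genes were called, 39% higher and 34.6% lower. In WT 42 were higher and 29 lower, where 78.3% of all genes were called, 40.9% higher and 37.4% lower. The RA change in C48S exceeded that in WT for 35 and was below it for 11, where 39.4% of all genes were called, 22.2% higher and 17.2% lower.

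**Figure D5:**
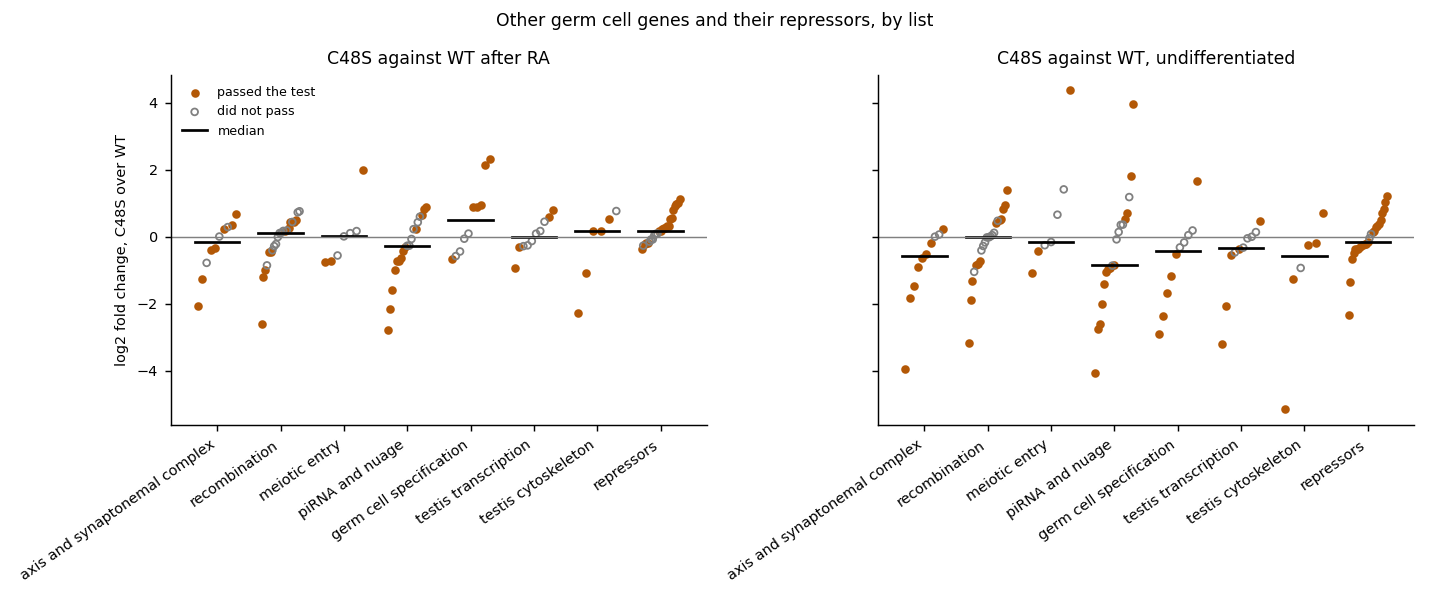
Log2 difference of C48S from WT for each tested gene of the 7 germ cell lists and the repressors, after RA (left) and in undifferentiated cells (right). Each point is a gene, filled where edgeR's test was passed, and the bar is the median of the list. In undifferentiated cells 7 of the 10 other genes of the meiotic chromosome axis are lower in C48S and 1 is higher. Of the 22 recombination genes 6 are lower and 6 higher, and of all genes tested 28.1% are lower and 27.5% higher.

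Among partners of Hormad1 and Sycp3 on the meiotic chromosome axis, 3 of 10 were higher and 4 lower in C48S after RA, and 1 was higher and 7 lower before RA. Rec8, a meiotic cohesin subunit, stood in the same order as Stra8 after RA. It had 194, 207 and 202 CPM in C48S RA libraries, against 487, 481 and 478 CPM in WT RA libraries, and was lower in C48S by edgeR at -1.26 ± 0.050 (adjusted p = 3.68e-21). It averaged 22.7 ± 2.8 CPM in undifferentiated C48S and 26.0 ± 1.3 CPM in undifferentiated WT (SD, n = 3 each). Smc1b, another meiotic cohesin subunit, averaged 2.41 CPM in C48S RA, 9.89 CPM in WT RA, 1.18 CPM in undifferentiated C48S and 18.1 CPM in undifferentiated WT. It was lower in C48S in both states, at -2.05 ± 0.19 after RA (adjusted p = 2.28e-12) and -3.94 ± 0.25 before it (adjusted p = 5.8e-19). Hormad2, the relative of Hormad1, was at 0.00 ± 0.13 after RA (adjusted p = 0.985) and at -1.47 ± 0.11 before it (adjusted p = 2.55e-14).

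Of 22 recombination genes, 5 were higher and 5 lower after RA, and 6 were higher and 6 lower before it. Rec114, which assists the formation of meiotic DNA breaks, was lower in C48S at -2.59 ± 0.19 after RA (edgeR adjusted p = 4.56e-15). Of 7 other regulators of meiotic entry, 1 was higher and 2 lower in C48S after RA, and 1 was higher and 2 lower before it. The higher gene was Figla in both states. Before RA its call rested on 7 counts summed over C48S and 0 over WT, and the libraries overlapped. With RA, 6 of the 7 were higher and 1 lower in each line. Meioc, which prolongs meiotic prophase, averaged 48.5 CPM in C48S RA, 79.4 CPM in WT RA, 4.78 CPM in undifferentiated C48S and 6.31 CPM in undifferentiated WT. It was lower in C48S after RA at -0.71 ± 0.076 (adjusted p = 7.25e-10). Sohlh2, a germ cell bHLH factor, was lower in C48S at -0.75 ± 0.061 after RA (adjusted p = 9.21e-13) and -1.08 ± 0.070 before it (adjusted p = 1.31e-15).

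Of 19 other piRNA and nuage genes, 4 were higher and 9 lower in C48S after RA, and 4 were higher and 9 lower before it, not all the same genes. Tdrd12 was called higher after RA, at 0.24, and lower before it, at -0.84. Fkbp6 and Gpat2, both needed for piRNA production in mouse testis, were lower after RA at -2.79 ± 0.15 (edgeR adjusted p = 9.98e-19) and -2.14 ± 0.11 (adjusted p = 2.1e-18). Piwil2, a piRNA-binding protein, was higher after RA at 0.81 ± 0.076 (adjusted p = 2.62e-11), and so was the helicase Mov10l1 at 0.87 ± 0.12 (adjusted p = 5.54e-08). Of 10 primordial germ cell regulators and RNA-binding proteins, the list of Dazl, 5 were higher and 1 lower after RA, and 1 was higher and 5 lower before it. Kit, a receptor that germ cell precursors need, was higher in C48S after RA at 0.90 ± 0.054 (adjusted p = 3.97e-16) and lower before it at -0.53 ± 0.051 (adjusted p = 4.49e-11). Of 10 testis transcription and chromatin factors, the list of Brdt and Taf7l, 2 were higher and 2 lower after RA, and 1 was higher and 4 lower before it. Tcfl5 of that list was lower at -0.94 ± 0.083 after RA (adjusted p = 6.05e-12). Of 6 testis tubulin and cytoskeleton genes, 3 were higher and 2 lower after RA, and 1 was higher and 4 lower before it. Tuba3b was lower at -2.29 ± 0.27 after RA (adjusted p = 7.3e-10), with its shared sequence as for Tuba3a.

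The repressors that hold germ cell genes down were read beside the members. Of 25 such genes, 14 were higher and 4 lower in C48S after RA, and 10 were higher and 13 lower before it. Of all genes 28.8% were higher and 25.7% lower after RA, and 27.5% and 28.1% before it. Cbx3 and Rybp, higher in C48S after RA at 1.14 and 1.01, lie on chromosome 6, whose median difference was 0.60. Dnmt3a, a de novo DNA methyltransferase, averaged 180 ± 1.7 CPM in C48S RA and 104.3 ± 1.4 CPM in WT RA (SD, n = 3 each). It averaged 50.6 ± 3.3 CPM in undifferentiated C48S and 255 ± 4.2 CPM in undifferentiated WT (SD, n = 3 each). It was higher in C48S after RA at 0.79 ± 0.050 (edgeR adjusted p = 1.78e-15) and lower before it at -2.33 ± 0.054 (adjusted p = 4.27e-28). E2f6 was higher in C48S at 0.52 ± 0.082 after RA (adjusted p = 1.34e-06) and 0.69 ± 0.093 before it (adjusted p = 6.78e-08). The part of these genes in the members' values was not tested.

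The 3 members with no CACGTG in their promoter window, Dazl, Tuba3a and Stra8, were the 3 called lower in C48S after RA, and of the 7 with it 3 were higher and 4 were not called. This split was seen after the values were known. Among other germ cell genes with a promoter entry, 6 of 14 with CACGTG and 16 of 48 without it were lower after RA. Those higher were 4 of the 14 and 12 of the 48. Among all tested genes with an entry, 26.4% of 1364 with it and 26.5% of 10728 without it were lower, and 31.7% and 31.6% were higher.

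Markers of other cell types were read in the same libraries. None of the 8 haploid germ cell markers, such as protamines, reached 1 CPM on average in any group, and 5, 4, 7 and 7 of them had no count in C48S RA, WT RA, undifferentiated C48S and undifferentiated WT libraries. The 12 somatic gonad markers summed to 54.2 to 57.8 CPM in C48S RA, 73.8 to 80.0 CPM in WT RA, 35.3 to 36.3 CPM in undifferentiated C48S and 18.6 to 20.9 CPM in undifferentiated WT libraries. They went both ways after RA, with 3 of the 11 tested higher in C48S and 4 lower by edgeR. Wt1, 1 of those lower, averaged 7.77 CPM in C48S RA and 29.3 CPM in WT RA. The 8 fibroblast or feeder markers summed to 352 to 357 CPM in C48S RA, 227 to 231 CPM in WT RA, 451 to 609 CPM in undifferentiated C48S and 332.5 to 364 CPM in undifferentiated WT libraries. Pdgfrb made up much of the RA sums, with a mean of 223 CPM in C48S RA and 85.1 CPM in WT RA. By edgeR 1 of these 8 genes was higher in C48S after RA and 4 were lower, against 28.8% and 25.7% of all genes. The 7 embryonic stem cell markers summed to 508 to 549 CPM in C48S RA and 93.6 to 103.5 CPM in WT RA libraries, and to 4214 to 4355 CPM in undifferentiated C48S and 3651 to 3765 CPM in undifferentiated WT libraries. These sums differed between the lines in both states, and their part in the members' differences was not tested.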

How the data were processed

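Titles gave each library its genotype and state. The deposited values were raw read-pair counts per gene, which the authors made with featureCounts 1.6.3 (strand option 2, largest overlap, Ensembl release 104 on GRCm39), per the file headers. STAR 2.7.9a, DESeq2 and mm39 are named in the submitters' processing notes. Because strand was used, overlapping antisense genes were kept apart; pairs mapping to near-identical copies could be lost. Symbols came from GENCODE M21, used for names alone, and matched 52083 of 55416 identifiers.

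Genes were tested in R 4.3.3 with edgeR 4.0.16 after filterByExpr with a minimum count of 10. Scaling was by TMM, and all 12 libraries entered 1 robust quasi-likelihood model with group means and 8 residual degrees of freedom. Calls needed a Benjamini-Hochberg adjusted p under 0.05 over 17940 genes. The 95% intervals were made from the SE and a t distribution on the 8 residual degrees of freedom. The p-values came from edgeR's quasi-likelihood test, so an interval and its p-value are not from the same calculation. CPM used TMM-scaled totals. Pattern likeness used log2 CPM with a pseudocount of 2. The procedure was tested on simulated data. Alternatives were another scaling, DESeq2 1.42.0, other filters, a null of a 1.5-fold change, the compared groups alone, a replicate block and each library left out. Library totals as the scale, and a count of the main fit's calls without genes of chromosomes 6, 8, 11 and Y, were added after seeing the data.

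The members and gene lists were chosen with earlier results of these data known. The genes named were all 10 members, per list and comparison up to 4 others with the smallest adjusted p, every gene of a list with at most 5 calls or 12 genes, and the 5 genes most like Dazl and Stra8; a part of these is printed.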

Additional observations from a re-analysis of the deposited data

Results flagged for a closer look

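Among the members, Brdt, Stk31 and Tuba3a moved with RA in opposite directions in the lines, every C48S library one way and every WT library the other. The C48S change minus the WT change was 3.73 on the log2 scale for Brdt, 1.88 for Stk31 and 3.10 for Tuba3a, and the difference was not tested because the undifferentiated libraries chose the members.

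For 3 other germ cell genes with RA changes of opposite sign in the lines, edgeR's test called the difference itself, at 1.89 for Smc1b (adjusted p = 2.85e-06), 0.69 for Tfap2c (adjusted p = 4.03e-05) and 2.86 for Tuba3b (adjusted p = 4.2e-05). Tuba3b rests on 6 counts in undifferentiated C48S. Among the repressors, Dnmt3a differed by 3.12 (adjusted p = 1.2e-26), Ehmt2 by 0.63 (adjusted p = 6.25e-09) and Dnmt3l by -0.89 (adjusted p = 5.88e-08). Dnmt3a was higher with RA in C48S and lower in WT, and Dnmt3l the other way round. Ehmt2 was lower with RA in WT, at -0.52, while in C48S its change of 0.11 was called narrowly (adjusted p = 0.0485) and the libraries overlapped.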

How the results depend on the processing

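No member called after RA reversed its direction in any of the 21 settings. The directions of the other named genes were not followed through these settings. Of the members after RA, edgeR called 6, between 5 and 6 with a library left out and between 4 and 6 otherwise. Dazl, Taf7l, Tuba3a and Stra8 were called in all 21 settings, and Brdt, Hormad1, Sycp3 and Mael in 0. Ddx4 and Stk31 are given above where they were lost. Against a null of a 1.5-fold change, 19 other germ cell genes were called after RA in place of 48, 30 in undifferentiated cells in place of 52, and 21 for the difference in RA change in place of 46. With a library left out these counts were 41 to 49, 43 to 53 and 37 to 46, and those for RA were 65 to 70 in C48S and 68 to 71 in WT. Replicate numbers did not pair the libraries: same-numbered libraries had correlations of their deviations between -0.075 and 0.056 over 18 pairs. With the replicate block 6 members and 48 other germ cell genes were called after RA. Library totals as the scale, added after seeing the data, moved the median of all genes by 0.24 for RA in C48S and 0.34 for RA in WT, and by -0.11 for their difference. The share of calls that were higher then went to 66.2% in place of 53% in C48S, 66.8% in place of 52.3% in WT, and 44.2% in place of 56.4% for the difference. Leaving genes of chromosomes 6, 8, 11 and Y out of the list, also added later, left 69 other germ cell genes. Of these 38 were called after RA, and of the 15 left out 10 were called. The model was not fitted again, so these are the main fit's own calls and no check of them. The difference in RA change of Sycp3, 0.01 over all libraries, was -0.09 without undifferentiated C48S replicate 3, and that of Taf7l, also 0.01, was 0.20. Few counts per group limit precision: 82 to 151 for Sycp3 in every group, 55 and 164 for Taf7l and Mael in undifferentiated WT, and 80 to 144 for Brdt, Stra8, Taf7l, Mael and Tuba3a in undifferentiated C48S.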
